A study of Mus musculus with 96 samples.

Results

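The genes described here are Tnf, which encodes the cytokine tumour necrosis factor, its receptors Tnfrsf1a (TNFR1) and Tnfrsf1b (TNFR2), and Adam17, which encodes the protease that cuts TNF and both receptors from the cell surface. Their probe sets were taken by symbol from the platform annotation, and the genes themselves were chosen with earlier results of these data known. The 4 genes have 7 of the 18858 probe sets: 1 for Tnf (1419607_at), 1 for Tnfrsf1a (1417291_at), 2 for Tnfrsf1b (1418099_at and 1448951_at) and 3 for Adam17 (1421858_at, 1421859_at and 1421857_at). For Tnfrsf1b and Adam17 the probe set named first had the highest mean over all arrays and is the one described unless another is named. The samples were mouse primary bone marrow dendritic cells given 1 of 5 Toll-like receptor ligands, labelled Lps, Pic, Pam, Cpg and Grd, and taken at 9 times: 0.5, 1 and 2 h (early), 4, 6 and 8 h (middle), and 12, 16 and 24 h (late). From knowledge of the study these are lipopolysaccharide (TLR4), poly(I:C), a double-stranded RNA analogue (TLR3), a bacterial lipopeptide (TLR2), CpG DNA (TLR9) and gardiquimod (TLR7). Lps, Pic, Pam and Grd had 18 arrays each, 2 at each time, and Cpg had 16, with 1 array at 16 h and 1 at 24 h. Unstimulated cells, labelled Control, had 8 arrays, 1 each at 0, 1, 2 and 4 h and at 6, 8, 12 and 24 h. Mouse strain, genotype, culture conditions and ligand doses are not given in the sources used here. Nothing says that both arrays of a ligand and time are from different cultures, so the p-values cover the spread among these arrays alone, and that spread may be technical.

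TNF is made as a protein anchored in the membrane of the producing cell, and ADAM17, also called TACE, releases the soluble cytokine. TNFR1 is present on most cell types and carries a death domain, through which it can drive NF-kB, MAP kinases and cell death. TNFR2 is found mainly on immune and endothelial cells, has no death domain and responds best to membrane-anchored TNF. In dendritic cells and macrophages Tnf is a classical early target of Toll-like receptor signalling through NF-kB, and its message is short-lived because of AU-rich elements bound by proteins of the tristetraprolin family.

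Values are intensities on a linear scale with a floor of 20, the lowest value in the table. Within a ligand and time, r across genes was 0.9852 to 0.9982 between arrays, and whether these are independent replicates is not given. The 96 arrays shared 1 plate, on which columns 1 to 9 held the successive times of Pam, Grd, Lps and Pic, and columns 10 to 12 held Cpg and the unstimulated cells. Position, ligand and time therefore cannot be told apart. Of the dendritic cell markers, 7 of 9 measured genes had an unstimulated median of at least 50, and Itgax, which encodes CD11c, had 3702. Their sum was 27252 to 29466 in the unstimulated arrays, 22433 to 28747 after Lps, 25601 to 28342 after Pic, 21027 to 30681 after Pam, 21595 to 29925 after Cpg and 18768 to 29131 after Grd. The MHC class II genes Cd74 (unstimulated median 7931), H2-Ab1 (5716), H2-Aa (5034) and H2-Eb1 (4655) weigh most in this sum. It is therefore no measure of the share of dendritic cells. Flt3 (median 28.2) and Zbtb46 (42.3), which mark conventional dendritic cells, lay close to the floor. All 7 measured macrophage markers were above 50, with a summed intensity of 9031 to 16728 in the unstimulated arrays and of 7535 (Pic) to 22168 (Grd) in the stimulated ones. The neutrophil markers (4 of 7 above 50) summed to 4994 to 7905 in the unstimulated arrays and to 1196 (Lps) to 10913 (Pic) after a ligand. The 1 measured B cell and the 1 measured T cell marker were at 20 without a ligand. Among measured markers, an unstimulated median of at least 50 was found for 1 of 3 plasmacytoid dendritic cell, 1 of 2 NK cell, 0 of 2 mast cell or basophil and 0 of 1 fibroblast markers. Markers at 20 on all 96 arrays are not counted as measured. These were 3 B cell (Cd79a, Ms4a1, Pax5), 2 T cell (Cd3g, Cd2) and 2 NK cell markers (Ncr1, Gzma). So were 3 mast cell or basophil markers (Cpa3, Fcer1a, Ms4a2) and 1 fibroblast marker (Col3a1). The part of other cells in the values below was not tested, and fewer cells of a type cannot be told apart from less RNA per cell.

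The sequence before the annotated start is printed for 3 of the genes. They stand for a fast and large response (Tnf), one with its highest mean at 16 or 24 h (Tnfrsf1b) and none past the threshold (Tnfrsf1a). RefSeq promoter windows of build GRCm38.p6, with 250 bases before and 50 from the start on, matched 4 of 4 genes. The stretch of 250 bases before each start is given 5′ to 3′ on the gene's strand, with matches to the motifs searched in capitals.
Tnf, chr17:35202008-35202257, minus strand: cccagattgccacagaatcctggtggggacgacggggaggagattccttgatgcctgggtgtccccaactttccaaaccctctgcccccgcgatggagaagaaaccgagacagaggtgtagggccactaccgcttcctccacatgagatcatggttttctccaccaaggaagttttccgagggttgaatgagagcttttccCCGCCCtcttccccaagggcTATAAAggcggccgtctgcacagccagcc
Tnfrsf1b, chr4:145246871-145247120, minus strand: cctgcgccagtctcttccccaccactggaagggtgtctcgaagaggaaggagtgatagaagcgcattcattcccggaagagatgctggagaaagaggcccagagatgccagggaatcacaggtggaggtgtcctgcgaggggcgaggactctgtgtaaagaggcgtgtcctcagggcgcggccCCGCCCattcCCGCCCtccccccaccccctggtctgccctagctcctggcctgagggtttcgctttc
Tnfrsf1a, chr6:125349473-125349722, plus strand: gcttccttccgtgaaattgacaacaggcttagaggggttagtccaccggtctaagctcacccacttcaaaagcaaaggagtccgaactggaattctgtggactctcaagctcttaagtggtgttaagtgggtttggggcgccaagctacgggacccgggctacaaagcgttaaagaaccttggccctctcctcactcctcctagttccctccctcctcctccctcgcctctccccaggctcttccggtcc
Searched on both strands were the TATA box TATAAA, the GC box GGGCGG, the AP-1 site TGANTCA, the cAMP response element TGACGTCA and the degenerate NF-kB consensus of 10 letters. No matches overlapped in the 4 windows. Tnf was the only one of the 4 windows with the TATA box, at 29 to 24 bases before the start, and 13.6% of 32851 windows of 300 bases hold that motif. A GC box was found in 3 of the 4 windows (1 in Tnf, 2 in Tnfrsf1b, 1 in Adam17), and in 35.7% of all windows. No window of the 4 genes held the NF-kB consensus (4.51% of all), the AP-1 site (7.81%) or the cAMP response element (1.79%). These are matches of letters in a short window and say nothing on binding, including that of NF-kB further upstream.

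Tnf was far above its unstimulated level within the first hour of Lps, Pam, Cpg and Grd, stayed within reach of its peak until 8 h and was still above it at 24 h. With Pic the same message came later and stayed lower at every time. In unstimulated cells the Tnf intensity was 109.1 at 0 h, 80.8 at 1 h, 157.6 at 2 h, 68.5 at 4 h, 33.2 at 6 h, 49.2 at 8 h, 55 at 12 h and 33.7 at 24 h, with a mean of 73.4 ± 42.4 (SD, n = 8). These arrays thus differ among themselves by several fold, with the higher values in the first hours. Their trend from 0 to 24 h was -1.85 ± 0.59 on the log2 scale (SE; adjusted p = 0.078), which did not pass the test over all genes. It passed at an adjusted p of 0.046 when only probe sets with an intensity of 50 or more on at least 2 arrays were tested.

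After Lps the 2 arrays had Tnf intensities of 894 and 706 at 0.5 h, 3747 and 3982 at 1 h, 4306 and 4800 at 2 h, 4253 and 4898 at 4 h and 4608 and 4641 at 6 h. They then had 2939 and 2978 at 8 h, 1801 and 1860.2 at 12 h, 1040 and 1064 at 16 h and 562 and 663 at 24 h. The highest mean was at 6 h (4624 ± 24, SD, n = 2, 63.0 times the unstimulated mean), but arrays of 2 and 4 h overlapped it, so Lps gave a plateau from 2 to 6 h rather than a single peak. From 6 h on the arrays of successive times did not overlap, and each time lay below the one before it.

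After Pam the arrays had 2461 and 1347 at 0.5 h, 4600.4 and 5295 at 1 h, 2986 and 2657 at 2 h, 3404 and 3594 at 4 h, 3848 and 3371 at 6 h and 3310 and 2938 at 8 h. Later they had 1854 and 1907 at 12 h, 1613 and 1546 at 16 h and 1181 and 1204 at 24 h. Pam thus peaked at 1 h (mean 4948 ± 491, SD, n = 2, 67.4 times unstimulated) and lay lower at 2 h, with no overlap. The 4 and 6 h arrays lay above those of 2 h but did not come back to the 1 h level. At 0.5 h Pam had the highest Tnf of the 5 ligands, although its 2 arrays there differed widely.

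After Cpg the arrays had 1159.7 and 1200.3 at 0.5 h, 5323 and 5717 at 1 h, 4512 and 4326 at 2 h, 5286 and 5136 at 4 h and 5116 and 5136 at 6 h. They had 3183 and 3219.5 at 8 h and 2772 and 2565 at 12 h, and the single arrays had 793 at 16 h and 982 at 24 h. Cpg had the highest peak mean of the 5 ligands, 5520 ± 279 (SD, n = 2, 75.2 times unstimulated) at 1 h, a lower 2 h value and a second high stretch at 4 and 6 h. As a ratio the largest fall was from 12 to 16 h (means 2668 and 793), which rests on 1 array at 16 h. In intensity the fall from 6 to 8 h (means 5126 and 3201) was slightly larger, and over fewer hours. With arrays centred on their median the peak lay at 6 h for Cpg and at 4 h for Lps.

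After Grd the arrays had 386 and 286 at 0.5 h, 3146 and 3282 at 1 h, 3622 and 3789 at 2 h, 4570 and 4192 at 4 h and 5089.8 and 5234 at 6 h. They had 3384 and 3590.3 at 8 h, 2982 and 2914 at 12 h, 1274 and 1168 at 16 h and 1228 and 1014 at 24 h. Grd started lowest of the 4 strong ligands, climbed at each time to a peak at 6 h (5162 ± 102, SD, n = 2, 70.3 times unstimulated) that no other time overlapped, and held more than 50% of it until 12 h. The other strong ligands held that share from 1 to 8 h.

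After Pic the arrays had 149 and 146 at 0.5 h, 316 and 380 at 1 h, 773 and 753 at 2 h, 483 and 500 at 4 h and 932 and 994 at 6 h. They had 1121 and 1015 at 8 h, 610.4 and 629.8 at 12 h, 352 and 369 at 16 h and 195 and 163 at 24 h. Pic peaked last, at 8 h, and at 1068 ± 75 (SD, n = 2) or 14.6 times the unstimulated mean, after a first maximum at 2 h and a lower value at 4 h. At 0.5 h it was the only ligand whose arrays lay within the unstimulated range.

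**Figure D1:**
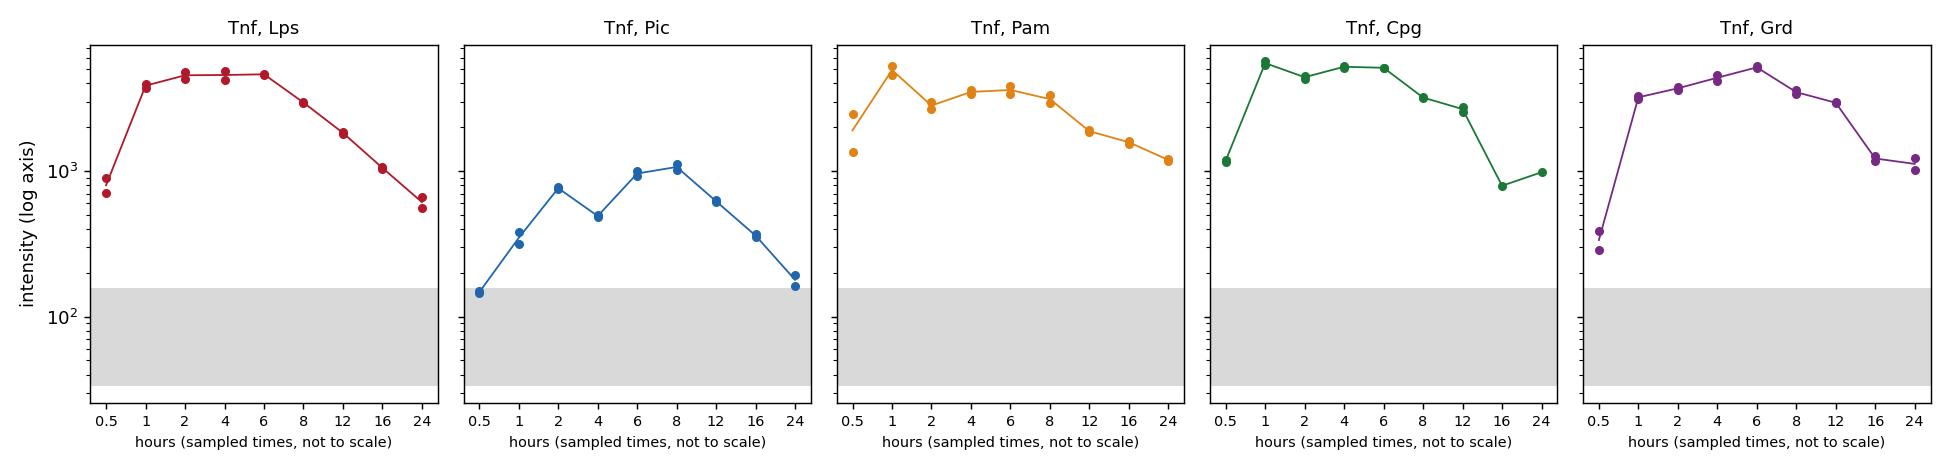
Tnf intensity (log axis) at each sampled time for each ligand. Points are arrays, lines join the time means, and the grey band spans the 8 unstimulated arrays, from 33.2 to 157.6. From 1 to 6 h the lowest array of Lps, Pam, Cpg and Grd is at 2657 (Pam, 2 h), and Pic stays at or under 1121.

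The arrays lay above all 8 unstimulated arrays at 9 of 9 times for Lps, Pam, Cpg and Grd and at 8 of 9 for Pic. Over all probe sets and times that held for 16.8% after Lps, 13.9% after Pam, 15.9% after Cpg, 14.8% after Grd and 15.1% after Pic. At 24 h Tnf was at 13.3% (Lps), 16.8% (Pic), 24.1% (Pam), 17.8% (Cpg, 1 array) and 21.7% (Grd) of its peak. That was still 8.35, 2.44, 16.3, 13.4 and 15.3 times the unstimulated mean. This mean of 73.4 covers all unstimulated times, and the unstimulated array of 24 h had 33.7, so ratios to that array are larger.

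Tnf passed the test as higher in all 15 windows of ligand and time. A gene was called when its adjusted p over all genes tested was under 0.05 and its difference at least 1 on the log2(intensity + 1) scale, a scale that understates the change of dim genes. At 0.5 to 2 h Tnf rose by 5.20 (Lps), 2.38 (Pic), 5.49 (Pam), 5.55 (Cpg) and 4.60 (Grd) on the log2 scale, each ± 0.17 (SE, 6 arrays against 8). This SE rests on a spread pooled over all groups. The 8 unstimulated arrays, of different times, spanned 33.2 to 157.6, a wider ratio than between the arrays of any ligand and time. The SE and adjusted p can therefore understate the uncertainty of the unstimulated mean. At 4 to 8 h the rises were 5.92, 3.61, 5.70, 6.08 and 6.04 ± 0.17, which for Cpg is 67.5-fold. At 12 to 24 h they were 4.02, 2.39, 4.55 and 4.61 ± 0.17 with Lps, Pic, Pam and Grd. With Cpg, which had 4 arrays there, the rise was 4.29 ± 0.20. The largest of the 15 adjusted p was 6.36e-16. Of all genes tested, 1.57% (Lps), 0.617% (Pic), 1.65% (Pam), 1.85% (Cpg) and 0.948% (Grd) were called higher in the early window. In the middle window these were 7.05%, 4.93%, 3.48%, 5.4% and 4.53%, and in the late window 4.7%, 4.53%, 3.42%, 3.86% and 3.84%, in the same order. Ranked by difference among 10543 items, Tnf stood at 2 in the early window of Lps, Pam, Cpg and Grd and at 4 in that of Pic. Its rank went to 7, 5, 6 and 5 in the middle window of those 4 ligands and to 18, 13, 17 and 15 in the late one, and to 23 and 65 for Pic.

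**Figure D2:**
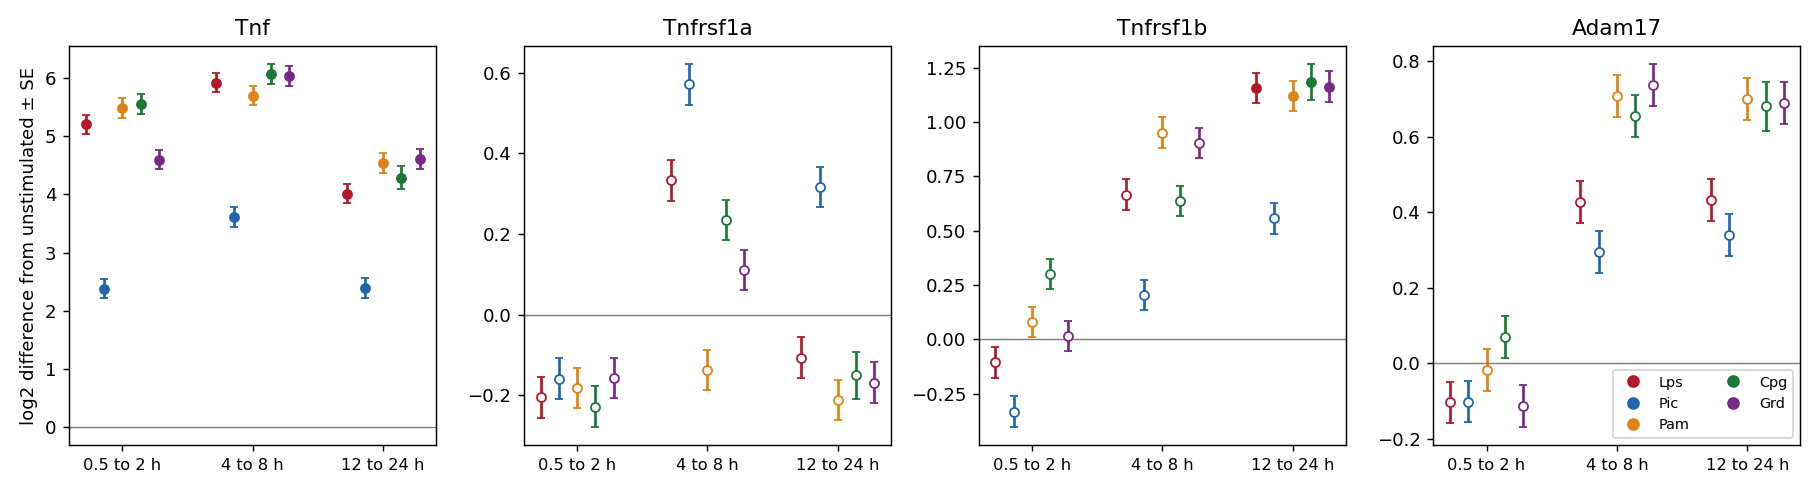
Log2 difference from the 8 unstimulated arrays in the early, middle and late window, for each gene and ligand, with the SE of the model. Filled symbols passed the test. The axes differ between genes. Tnf lies between 2.38 and 6.08 in every window, Tnfrsf1b passes 1 only at 12 to 24 h, and Tnfrsf1a and Adam17 stay under 1.

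Tnf separated Pic from every other ligand in every window, and no other pair of ligands passed the test. In the early window Lps exceeded Pic by 2.82 on the log2 scale, and Pic minus Pam, Cpg and Grd was -3.11, -3.17 and -2.22 (SE 0.18). In the middle window Lps exceeded Pic by 2.32, and the other differences were -2.09, -2.47 and -2.43. In the late window they were 1.62 for Lps over Pic and -2.15, -1.90 and -2.21 for Pic minus Pam, Cpg and Grd (SE 0.18, or 0.21 for Cpg). These are 12 of the 30 pairs, and the largest adjusted p among them was 5.41e-11. Over all 4 members there were 4 calls among 40 combinations of gene and pair in each window, all Tnf, against 0.439% of all gene and pair combinations in the early, 3.29% in the middle and 3.01% in the late window. Of the other pairs, Pam and Cpg exceeded Grd in the early window by 0.89 (adjusted p = 2.4e-04) and 0.95 (adjusted p = 6.7e-05), under the minimum size of 1. Both reached it when the 1 h arrays (1.03 and 1.04) or the 2 h arrays (1.53 and 1.30) were left out, and Cpg against Grd also without 1 of the Grd arrays of 0.5 h (1.02), as did Pam against Grd without the lower Pam array of 0.5 h (1.04). In the late window Lps minus Pam was -0.53 (95% interval -0.89 to -0.17) and Lps minus Grd -0.59 (-0.95 to -0.23), also under that size. Between Cpg and Grd in the middle window the difference was 0.04 (95% interval -0.32 to 0.40).

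From the middle to the late window Tnf fell with all 5 ligands: the late minus middle differences were -1.91 (Lps), -1.22 (Pic), -1.16 (Pam), -1.79 (Cpg) and -1.43 (Grd) on the log2 scale, with SE 0.18 or, for Cpg, 0.21 (largest adjusted p 4.2e-07). In all, 2.94%, 1.38%, 1.04%, 2.12% and 1.18% of genes were called lower there. Without the 24 h arrays the differences of Pic (-0.75) and Pam (-0.98) were under the minimum size. From the early to the middle window Tnf rose by 1.23 with Pic and 1.44 with Grd, where 4.64% and 3.21% of genes were called higher. Without the 0.5 h arrays these were 0.63 and 0.31 and not called. For Lps (0.72), Pam (0.21) and Cpg (0.52) the rise was not called, with 5.54%, 1.88% and 3.61% of genes called higher, and Lps reached 1.06 without the 1 h and 1.18 without the 2 h arrays. The falls themselves were then compared between ligands. None of the 10 pairs passed for Tnf, and none of the 40 combinations of member and pair (limma; 14 had an unadjusted p under 0.05 and 7 an adjusted one), against 1.53% of all gene and pair combinations. The differences of largest size were -0.75 ± 0.26 for Lps minus Pam (adjusted p = 0.016) and -0.69 ± 0.26 for Lps minus Pic (adjusted p = 0.027), where a negative value is a steeper fall with Lps. Without the 8 h arrays 2 of the 40 combinations passed (Lps against Pic at -1.11 and Pic against Cpg at 1.01), and without the 12 h arrays 1 did (Pam against Cpg at 1.01).

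Tnfrsf1a, the receptor with the death domain, passed the test in no window. Its arrays left the unstimulated range in both directions, with Pic and Lps over successive times. The unstimulated arrays had 484.1 at the lowest, 519.35 at the median and 605.4 at the highest (n = 8). After Pic the arrays had 501 and 530.2 at 0.5 h, 443 and 449 at 1 h, 458 and 468 at 2 h, 691 and 719 at 4 h and 894 and 892 at 6 h. They had 777 and 767 at 8 h, 758 and 729 at 12 h, 691 and 666 at 16 h and 579 and 556 at 24 h. The Pic arrays thus lay below all unstimulated arrays at 1 and 2 h, above all of them at 5 times from 4 to 16 h, and within their range at 24 h. Over all probe sets and times, 15.1% of combinations lay above after Pic. The share of all probe sets lying below was computed at 0.5 h alone, where it was 20.6% with Pic. The peak at 6 h was 893 ± 1.4 (SD, n = 2), 1.68 times the unstimulated mean.

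Lps, Cpg and Grd had their highest mean at 6 h too, but lower than Pic. At 2 h the Cpg arrays had 354 and 362 and the Lps arrays 386 and 425, all below the lowest unstimulated array. At 6 h they had 707 and 696 (Cpg) and 714 and 689 (Lps), above the highest, and Grd had 622 and 680. Pam had no time above the unstimulated range, with 507 and 522 at 6 h. At 24 h the arrays of Lps (433 and 413), Pam (441 and 422), Cpg (406) and Grd (404 and 412) all lay below the lowest unstimulated array. How many of all probe sets did so at 2 or 24 h was not computed, so these low arrays cannot be set apart from what other genes did. At 0.5 h the share was 15.9% (Lps), 15.1% (Pam), 6.81% (Cpg) and 14.7% (Grd). Above the range lay 16.8% (Lps), 13.9% (Pam), 15.9% (Cpg) and 14.8% (Grd) of all combinations of probe set and time. In the fit no window reached a log2 difference of 1 (0 of 15 called by limma, where 15 had an unadjusted and 13 an adjusted p under 0.05). Differences under that size were 0.57 ± 0.05 for Pic at 4 to 8 h (adjusted p = 9.6e-15), 0.33 for Lps, 0.23 for Cpg, 0.11 for Grd and -0.14 for Pam. The early values of all 5 ligands lay between -0.23 and -0.16. At 4 to 8 h Pic exceeded Pam by 0.71 ± 0.05 (adjusted p = 4.6e-17), which is Tnfrsf1a's widest gap between ligands and the reverse of their order for Tnf.

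Tnfrsf1b, the receptor without a death domain, was highest when Tnf was already falling. With Lps, Pam, Cpg and Grd it lay above the unstimulated range from 1 or 2 h on. Its unstimulated arrays had 1457 at 0 h, 1488 at 1 h, 1464 at 2 h, 1718 at 4 h, 1935 at 6 h, 1662 at 8 h, 2049 at 12 h and 2097 at 24 h. The late unstimulated arrays were thus the high ones, with a trend of 0.60 ± 0.12 from 0 to 24 h (adjusted p = 0.038), under the size of 1. Of all genes, 3.25% were called for this trend. After Lps the arrays had 1209 and 1259 at 0.5 h, 1203 and 1438 at 1 h, 2513 and 2474 at 2 h, 2457 and 2818 at 4 h and 2758 and 2614 at 6 h. They had 2775 and 2946 at 8 h, 3714 and 3948 at 12 h, 4197 and 4152 at 16 h and 3179 and 3872 at 24 h. A first step between 1 and 2 h and a second between 8 and 12 h stand out, with no overlap of arrays across either.

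The peaks were at 16 h for Lps (4174 ± 31, SD, n = 2, 2.41 times unstimulated), Pam (4140 ± 370), Grd (4108 ± 148) and Pic (3025 ± 50), and at 24 h for Cpg (4074, 1 array). At 0.5 h both arrays of Lps, of Pic (1039.9 and 1191) and of Pam (1245 and 1238) lay below every unstimulated array, as did those of Lps and Pic at 1 h. Of all probe sets, 15.9% (Lps), 20.6% (Pic) and 15.1% (Pam) did so at 0.5 h, and the share at 1 h was not computed. Cpg was the first to lie above the unstimulated range, with 2917 and 2126 at 1 h, the lower close to the highest unstimulated array (2097). Lps, Pam and Grd did so from 2 h and Pic at 8 h, where it had 2216 and 2472. This order was not the same with 1448951_at, where the first time above was 2 h for Cpg and Grd, 4 h for Lps and Pam and 12 h for Pic. With 1418099_at, Tnfrsf1b was above all unstimulated arrays at 7 times with Lps, Pam and Grd, 8 with Cpg and 3 with Pic. Over all probe sets and times that held for 16.8% (Lps), 13.9% (Pam), 14.8% (Grd), 15.9% (Cpg) and 15.1% (Pic). At 12 to 24 h it passed the test for Lps (1.16 ± 0.07), Pam (1.12 ± 0.07), Cpg (1.18 ± 0.08) and Grd (1.16 ± 0.07), each with an adjusted p of at most 2.5e-18. For Pic the difference was 0.56 ± 0.07 (adjusted p = 6.7e-10), and in that window Pic minus Grd was -0.61 and Pic minus Cpg -0.63, under the size of 1. These 4 calls rest on the choice of the unstimulated arrays. Against those of the same times the differences were 0.82 (Lps), 0.77 (Pam), 0.93 (Cpg) and 0.84 (Grd), and against a line through the unstimulated arrays 0.93, 0.89, 0.96 and 0.94, and none of the 4 was then called (largest adjusted p 1.7e-09). At 4 to 8 h the differences of Tnfrsf1b were 0.67 (Lps), 0.20 (Pic), 0.95 (Pam), 0.64 (Cpg) and 0.90 (Grd), none called, and Pam and Grd reached 1.02 and 1.00 after each array was centred on its median, and Pam 1.03 with array weights.

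Adam17, whose product sheds TNF and both receptors, passed the test in no window, though its arrays lay above the unstimulated range from the middle hours on with most ligands. The unstimulated arrays had 1130.1 at the lowest, 1232 at the median and 1719 at the highest, at 12 h (n = 8). The arrays lay above all of these at 6 times with Pam, Cpg and Grd, from 4 h on, at 3 with Lps, from 8 h on, and at 1 with Pic. Over all probe sets and times the share was 13.9% (Pam), 15.9% (Cpg), 14.8% (Grd), 16.8% (Lps) and 15.1% (Pic). The peaks were 2396 ± 29 (Grd, 12 h, SD, n = 2, 1.84 times unstimulated), 2243 ± 6.8 (Pam, 12 h), 2204 (Cpg, 16 h, 1 array), 2070.2 ± 11 (Lps, 12 h) and 1824 ± 24 (Pic, 12 h). For Pam, Cpg, Grd and Pic another time overlapped the peak, so the maximum was broad, and with arrays centred on their median it lay at 8 h for Pam and Grd and at 6 h for Cpg. By 24 h Lps (1354 and 1366) and Pic (1340.2 and 1423) were back in the unstimulated range, and Pam (1903 and 1842), Cpg (1866) and Grd (1756 and 1738) were not. No window reached a log2 difference of 1 (0 of 15 called by limma, with 11 at an unadjusted and 10 at an adjusted p under 0.05). The values at 4 to 8 h were 0.43 (Lps), 0.29 (Pic), 0.71 (Pam), 0.66 (Cpg) and 0.74 (Grd), each ± 0.06 (largest adjusted p 5.3e-06). At 12 to 24 h they were 0.43, 0.34, 0.70, 0.68 and 0.69. From the middle to the late window the change lay between -0.05 and 0.04 with SE 0.06 or 0.07, where Tnf had fallen by more than 1.

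**Figure D3:**
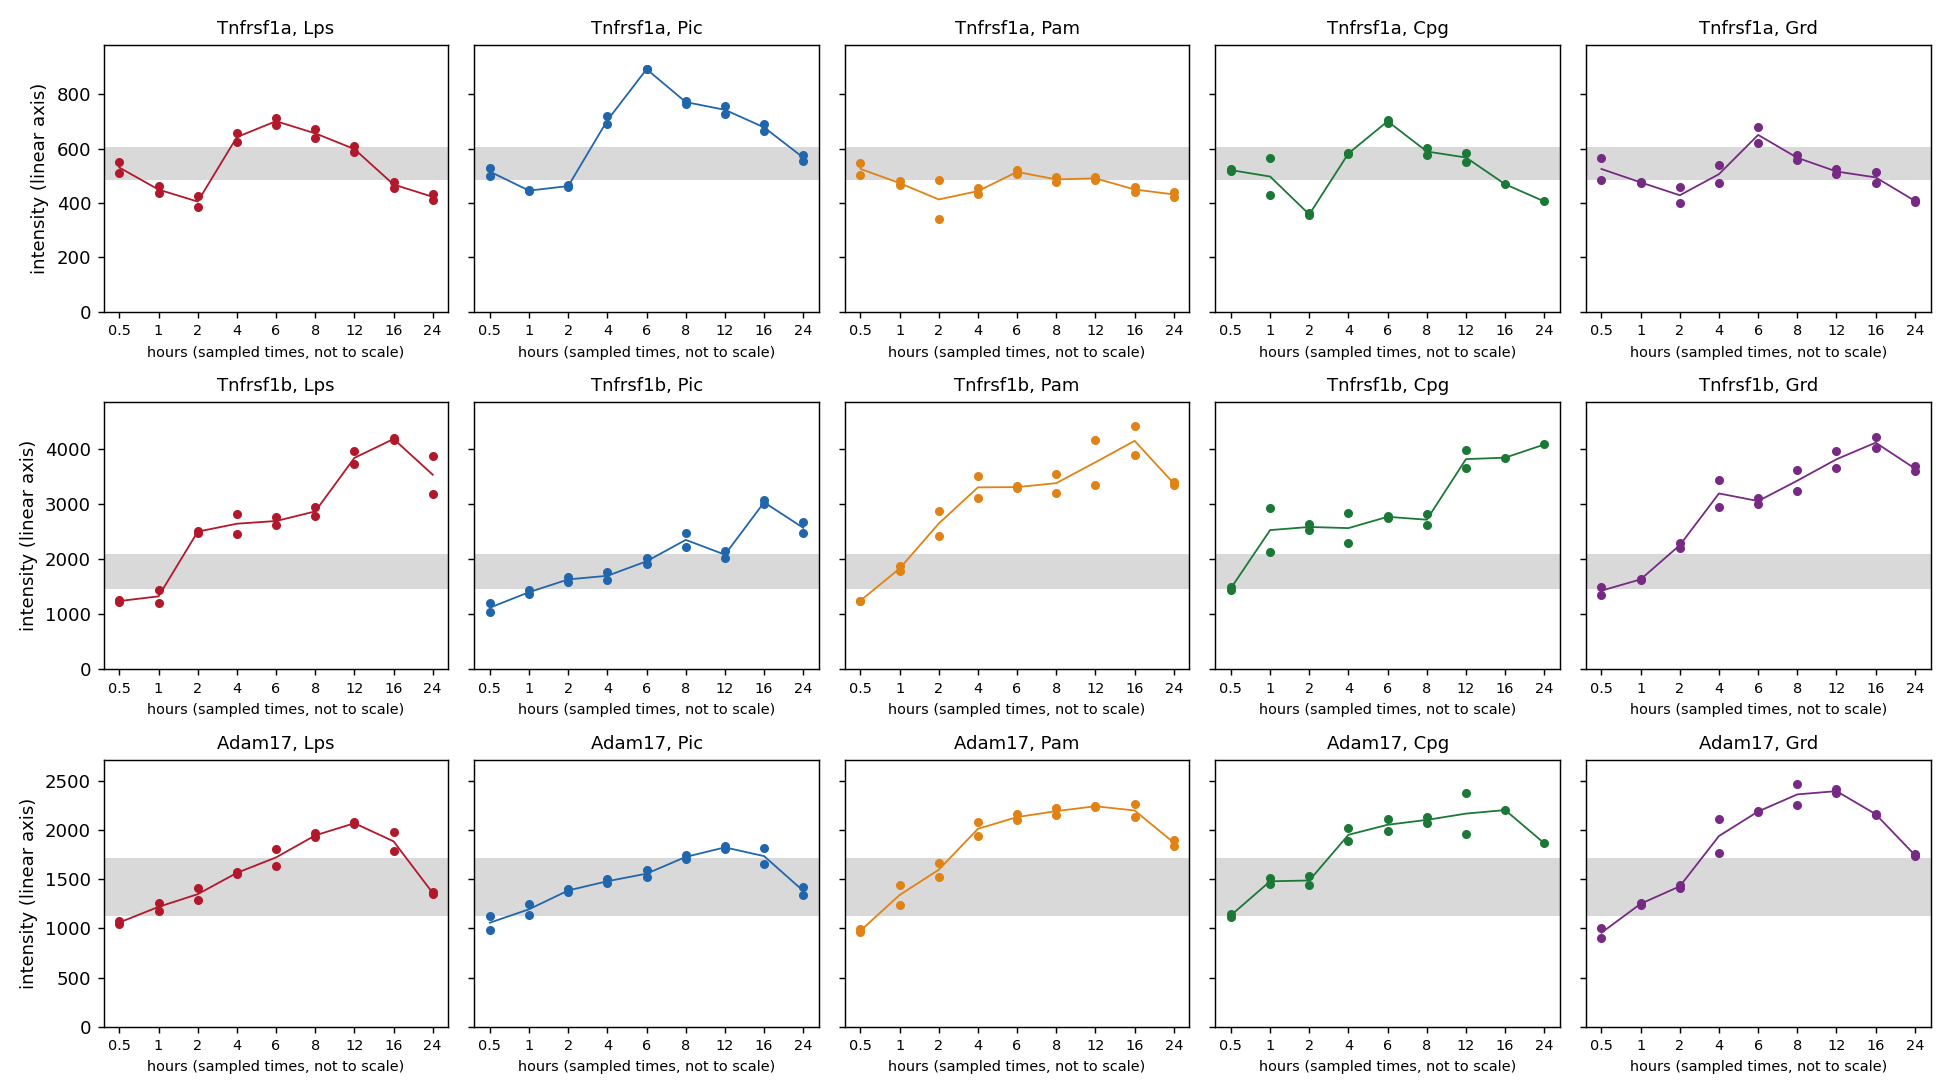
Intensity (linear axis from 0) of Tnfrsf1a, Tnfrsf1b and Adam17 at each sampled time, by ligand. Points are arrays, lines join the time means and the grey band spans the 8 unstimulated arrays of that probe set. Tnfrsf1a peaks at 6 h with Pic at 893, Tnfrsf1b is highest at 16 h in 4 of 5 panels, and Adam17 is highest at 12 h in 4 of 5.

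Which windows of Tnfrsf1b and Adam17 passed depended on the probe set. Over the 96 arrays the 2 Tnfrsf1b probe sets correlated with r = 0.909 and the 3 Adam17 probe sets with r between 0.856 and 0.942. With 1448951_at Tnfrsf1b was called higher at 4 to 8 h as well, by 1.17 (Lps), 1.19 (Pam), 1.49 (Cpg) and 1.58 (Grd) ± 0.16, and at 12 to 24 h by 1.57, 1.40, 1.54 and 1.83. Pic minus Cpg was -1.39 in the early and -1.11 in the middle window, and Pic minus Grd -1.20 in the middle and -1.03 in the late one, all called. The unstimulated trend of this probe set was 1.08 ± 0.25 and passed (adjusted p = 0.044). With 1421857_at Adam17 was called higher for Cpg at 4 to 8 h (1.04 ± 0.10, adjusted p = 7.1e-13), and with 1421859_at in no window.

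At 0.5 h these probe sets parted by ligand. For 1448951_at of Tnfrsf1b the unstimulated arrays had between 190.2 and 421.8, whereas the 0.5 h arrays had 71.6 and 136.4 (Lps), 71.9 and 68.6 (Pic), 96.1 and 80.7 (Pam) and 93.7 and 82.8 (Grd), and the Cpg arrays 266.4 and 167.5. For 1421857_at of Adam17 they had 103 and 181.8, 87.6 and 81.6, 123.3 and 135.6 and 108.7 and 91.6, against 340.8 and 289.9 with Cpg and an unstimulated range of 312.1 to 632.4. Both arrays of Lps, Pic, Pam and Grd thus lay below every unstimulated array for both probe sets. With Cpg 1 of the 2 arrays did for each. The share of all probe sets of which the same held at 0.5 h was 15.9% (Lps), 20.6% (Pic), 15.1% (Pam), 14.7% (Grd) and 6.81% (Cpg). These 0.5 h arrays of Lps, Pic, Pam and Grd all lay in plate column 1 and those of Cpg did not, so ligand, time and place cannot be told apart here. In the early window the fall of 1448951_at passed the test with Pic alone (-1.08 ± 0.16, adjusted p = 3.3e-07), where 0.247% of genes were called lower. The brighter probe sets of the same genes had smaller gaps: 1418099_at had 1039.9 and 1191 with Pic at 0.5 h against a lowest unstimulated value of 1457, and 1421858_at had 905 and 1006 with Grd against 1130.1.

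**Figure D4:**
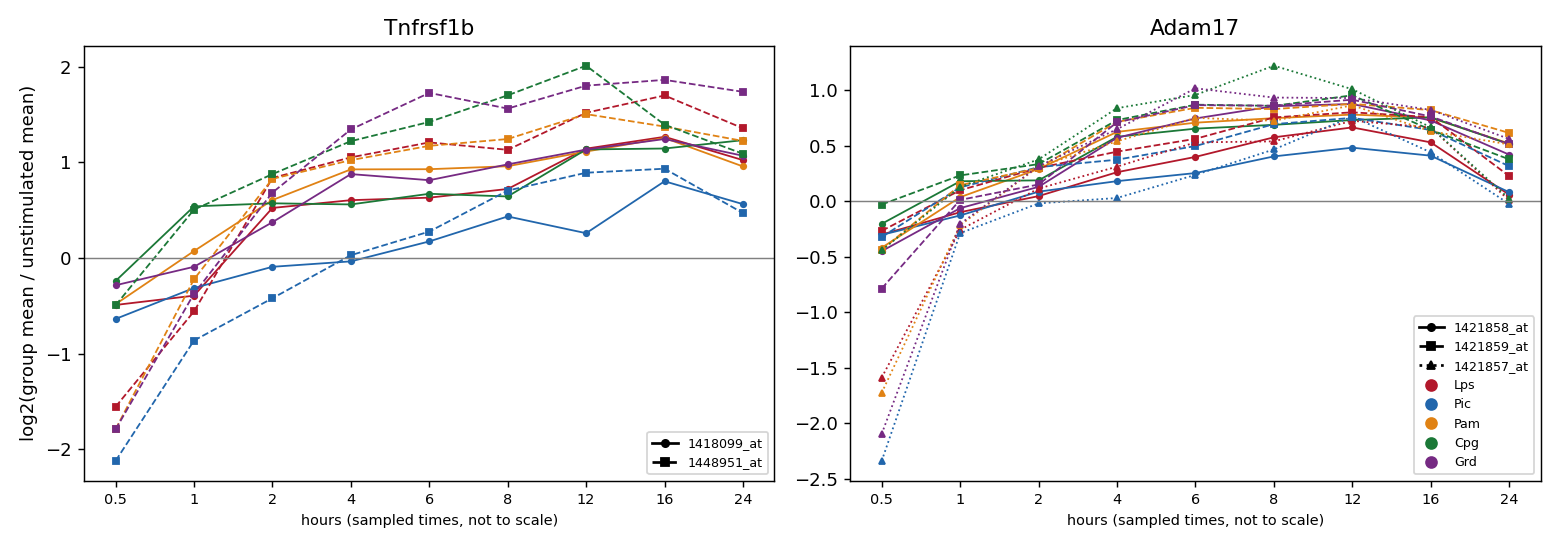
Mean of each ligand and time group over the unstimulated mean, on a log2 axis, for the 2 probe sets of Tnfrsf1b and the 3 of Adam17. Colours are ligands and line styles probe sets. At 0.5 h the probe sets 1448951_at and 1421857_at lie far below the others for Lps, Pic, Pam and Grd, and Cpg does not show this gap to the same extent.

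Genes of the TNF pathway around these 4 members were also called, among them inhibitors of NF-kB and brakes on signalling with every ligand. Of 89 genes in 9 lists, 66 were measured, and at 4 to 8 h 20 were called higher and 6 lower with Lps, 9 and 0 with Pic, 15 and 3 with Pam, 17 and 6 with Cpg and 19 and 5 with Grd. The shares of the measured list genes called higher were 30.3%, 13.6%, 22.7%, 25.8% and 28.8%, against 7.05%, 4.93%, 3.48%, 5.4% and 4.53% of all genes in these windows, which are also the background of the counts per list that follow. The shares called lower were 9.09%, 0%, 4.55%, 9.09% and 7.58%, against 8.22%, 2.79%, 4%, 5.53% and 3.92% of all genes. The median list difference was 0.44 (Lps), 0.21 (Pic), 0.30 (Pam), 0.29 (Cpg) and 0.26 (Grd), beside -0.11, -0.10, -0.03, -0.08 and -0.06 over all genes. The lists were chosen with results of these data known.

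Among NF-kB and its inhibitors, 6 of 9 measured genes were called higher with Lps, Cpg and Grd at 4 to 8 h, 5 with Pam and 3 with Pic. Nfkbiz, which encodes an inducible nuclear co-factor of NF-kB, rose by 4.59 (Lps), 2.43 (Pic), 4.40 (Pam), 4.99 (Cpg) and 4.89 (Grd). Nfkbia, the gene of the inhibitor IkB-alpha, rose by 1.31 (Pic) to 1.82 (Lps) and Nfkbie, of IkB-epsilon, by 1.57 (Pam) to 1.96 (Lps). Rel, the gene of the subunit c-Rel, was called with Lps (1.92), Cpg (1.61) and Grd (1.20), with 0.57 for Pic and 0.74 for Pam.

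Of the brakes on TNF signalling, 4 of 7 were called higher with Lps, Cpg and Grd and 3 with Pam and Pic at 4 to 8 h. Cflar, which encodes the caspase-8 inhibitor c-FLIP, rose by 2.56 (Pic) to 3.73 (Lps), and Tnfaip3, which encodes the ubiquitin-editing enzyme A20, by 2.08 (Pic) to 2.82 (Lps). Tnip1, of an A20 partner, rose by 1.36 to 1.68 except with Pic (0.71), and Tank by 1.10 to 1.52 except with Pam (0.71). Traf1, an adaptor of TNFR2, was the single gene called of 9 measured adaptors and ubiquitin ligases. It rose by 1.63 (Lps), 1.11 (Pam), 1.38 (Cpg) and 1.23 (Grd) at 4 to 8 h and with Pic at 12 to 24 h (1.32).

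Of 14 measured kinases, Map3k8, whose product TPL2 is needed for full TNF production, rose by 1.92 (Lps), 1.15 (Pam), 2.05 (Cpg) and 1.68 (Grd), with 0.68 for Pic. Map3k5 rose with Lps (1.37) and Grd (1.32), with 0.92 for Pam, 0.87 for Cpg and 0.76 for Pic just under the minimum size. Mapkapk2, whose product acts on the stability and translation of Tnf message, rose with Lps (1.35), Pam (1.20) and Grd (1.22), with 0.91 for Pic and 0.86 for Cpg. Map3k14, the gene of the kinase NIK, fell with Lps (-1.44), Pam (-1.29), Cpg (-1.43) and Grd (-1.33), with -0.69 for Pic. Of 5 measured death signalling genes, Daxx rose by 1.95 (Lps), 2.32 (Pic), 1.83 (Cpg) and 1.44 (Grd), with -0.20 for Pam. Ripk3, of a kinase of necroptosis, fell by 1.12 with Grd at 4 to 8 h. At 12 to 24 h it was called lower at -1.41 (Lps), -1.29 (Pam), -1.32 (Cpg) and -1.31 (Grd), with -0.44 for Pic.

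Of 6 measured regulators of Tnf message, Zc3h12a, whose product Regnase-1 cuts inflammatory messages, rose by 2.71 (Lps), 3.02 (Pam), 2.82 (Cpg) and 2.77 (Grd) at 4 to 8 h, with 0.18 for Pic. Zfp36l2, a relative of the tristetraprolin gene, fell with the same ligands (-2.02, -1.50, -2.10 and -1.60), with -0.47 for Pic. Zfp36l1, another relative, fell with Lps (-1.91) and Cpg (-1.66), with -0.52 for Pic, -0.94 for Pam and -0.88 for Grd. Of 6 measured shedding partners and inhibitors, Timp1 rose with Lps (1.97), Pam (1.19) and Cpg (1.33) at 4 to 8 h, with 0.26 for Pic and 0.81 for Grd. Timp2 was called lower with Lps (-1.13), Pam (-1.05), Cpg (-1.01) and Grd (-1.02) at 12 to 24 h, with -0.69 for Pic. Neither encodes TIMP-3, the inhibitor best known for acting on ADAM17.

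Of 8 measured other substrates of ADAM17, Ereg, of the growth factor epiregulin, was at 20 on each of the 8 unstimulated arrays. It was at least 4.72-fold higher with Lps, 7.10-fold with Pam and 7.32-fold with Grd at 4 to 8 h, and was not called there with Pic and Cpg. At 0.5 to 2 h Ereg was called with Cpg, at least 2.98-fold higher, and not with Grd. Hbegf, at the floor in 6 of the 8, rose with Lps (3.46), Pic (2.52), Cpg (2.49) and Grd (2.12), with 0.73 for Pam. Mertk, of a receptor for the uptake of dying cells, rose with Pic (1.40) and fell with Pam (-2.49) and Grd (-1.20) at 4 to 8 h, with 0.84 for Lps and -0.02 for Cpg. At 12 to 24 h Mertk was called lower with Lps (-1.27), Pam (-2.22), Cpg (-1.42) and Grd (-1.70), with 0.68 for Pic. Il6ra, of the interleukin-6 receptor, fell with Lps (-2.13), Cpg (-2.14) and Grd (-1.56) at 4 to 8 h, with -0.90 for Pic and -0.92 for Pam. Lta, the gene of lymphotoxin-alpha, which binds the same receptors as TNF, was likewise at the floor without a ligand and was at least 6.99-fold (Lps), 2.60-fold (Pam), 6.14-fold (Cpg) and 4.64-fold (Grd) higher at 4 to 8 h, and not called with Pic. All these comparisons share the same 8 unstimulated arrays.

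Across the 45 ligand and time groups and the unstimulated mean, the genes whose log2 levels ran most like Tnf were Il1a (Pearson's r = 0.913), Nfkbiz (0.908), Nfkbia (0.904), Socs3 (0.900) and Ccl3 (0.899). Il1a and Ccl3 encode a cytokine and a chemokine, and Socs3 encodes a suppressor of cytokine signalling. The genes most like Tnfrsf1a were Themis2 (0.943), Phc2 (0.923), Stard3 (0.914), Rgs14 (0.906) and Rab29 (0.905). Those most like Tnfrsf1b were Sod2 (0.953), which encodes the mitochondrial superoxide dismutase, Lmo4 (0.942), Ell2 (0.936), Tlr1 (0.933) and Procr (0.929). Those most like Adam17 were Mmp14 (0.931), of a membrane-bound matrix protease, Slc31a1 (0.931), Fpr2 (0.923), St3gal5 (0.914) and Apbb2 (0.908). These lists depend on the probe set. With 1448951_at the genes most like Tnfrsf1b were Pik3ap1 (0.957), Syk, Rab32, Cybb and Serinc1, none of them listed above. With 1421857_at those most like Adam17 were Uba3 (0.948), Ccnl2, Cybb, Clcn7 and Ap3m1, again none listed above. With 1421859_at Mmp14 and Fpr2 recurred. Among the members themselves Tnfrsf1b and Adam17 ran together (r = 0.870 over 46 means), and the other 5 pairs had r between -0.11 and 0.40. These are descriptions over groups that share times and a plate, chosen as the highest of many.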

How the data were processed

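Biotin-labelled total RNA was measured on Affymetrix mouse arrays (1 colour), per the labels' protocols. The deposited intensity values come from RMA, per the submitters' processing notes, with version, return to a linear scale and floor of 20 not given in the sources used here. Array medians lay between 48.75 and 59.5, and RMA's normalization can hide a shift common to all genes. GEO's platform annotation named the probe sets: 15044 had 1 symbol, 257 several and 3557 none listed, and RefSeq (GRCm38.p6) held 15024 of the single symbols. Leaving out those never above 20 kept 14449. The brightest per gene gave 10543 items, of which 7741 were named genes.

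A linear model in limma 3.58.1 (R 4.3.3) on log2(intensity + 1) had 1 mean for each of 45 ligand and time groups and 1 for the 8 unstimulated arrays (50 residual degrees of freedom, empirical Bayes). Windows are 0.5 to 2 h (early), 4 to 8 h (middle) and 12 to 24 h (late). Tests were two-sided, adjusted by Benjamini-Hochberg over all items. The method was tested on simulated data. Named are all members, up to 4 genes of each list with the largest called difference, and the 5 genes most alike per member. Members and lists were chosen with earlier results of these data known. Alternatives were other pseudocounts, filters, probe sets, array centring or quantile normalization, variance models, samples in the fit, references, thresholds, times or arrays left out and the replicate block. The number of arrays limits the precision.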

Additional observations from a re-analysis of the deposited data

Results flagged for a closer look

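The 12 differences between ligands that passed the test were all for Tnf and all involved Pic. As log2 differences of the first ligand minus the second they were 2.82 (Lps and Pic), -3.11 (Pic and Pam), -3.17 (Pic and Cpg) and -2.22 (Pic and Grd) at 0.5 to 2 h. At 4 to 8 h they were 2.32, -2.09, -2.47 and -2.43, and at 12 to 24 h 1.62, -2.15, -1.90 and -2.21, in the same order. No unstimulated array stood apart from the other 7 for any of the 7 probe sets by Dixon's criterion.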

How the results depend on the processing

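The 15 Tnf calls against unstimulated cells held under the 118 alternatives computed for each window. Of these, 96 left out 1 array each, and most of the arrays left out do not enter the difference of a given window. The value nearest to the threshold was 1.80 for Pic at 0.5 to 2 h without the 2 h arrays. Calls over the 4 members numbered 19 against unstimulated cells, 12 between ligands, 7 between windows, 0 between declines and 0 for the trend. With adjusted p alone they were 50, 61, 31, 7 and 1, and with a minimum size of 0.5 they were 31, 26, 20, 2 and 1. Pathway calls over the 15 windows, 173 higher and 40 lower, became 478 and 239, and 308 and 107. Changes between windows numbered 12 with the mean of all probe sets of a gene or the second Tnfrsf1b probe set, 11 with the third Adam17 probe set and 11 without the 2 h arrays. The trend count was 1 with the second Tnfrsf1b probe set and with the stricter filter on dim probe sets. Declines numbered 2 without the 8 h and 1 without the 12 h arrays. The cause of these shifts was not tested, beyond what each alternative leaves out or admits.

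Leaving out each array in turn gave 19 to 19, 12 to 13, 7 to 7, 0 to 0 and 0 to 0 calls, and 171 to 175 and 36 to 42 in the pathway lists. The replicate number was not taken as a pairing: over 903 pairs of groups the array differences correlated between -0.33 and 0.35 (median 0.008), with 157 above 0.1. With it as a block the calls were 19, 12, 7 and 0, and 172 and 39 in the lists. No called result changed sign under these alternatives. Peak times are less firm: with arrays centred on their median, 8 of 35 moved, among them Tnf with Lps to 4 h and with Cpg to 6 h.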
